A study of Mus musculus with 55 samples.

Results

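Sorted CD8 T cells of normal mouse bone marrow were set against sorted CD4 T helper cells of the same kind of marrow. The libraries were chosen by title alone, CD8 Normal 1 to 4 and CD4 Normal 1 to 4, which are 8 of the 55 libraries of the series, and no measured value entered that choice. The series used MARS-seq, which reads short tags near the 3′ end of transcripts, on granulocytes and 3 kinds of T cell sorted from marrow without metastases and from marrow of mice with early or late bone metastases. The CD8 Normal group (n = 4) holds cells labelled CD8+ T cytotoxic from marrow whose treatment is given as Normal. The CD4 Normal group (n = 4) holds cells labelled CD4+ T helper from the same kind of marrow. The same contrast was also read in early metastatic marrow, from CD8 Premet 1 to 4 and CD4 Premet 1 to 4. The labels give no strain, age, sorting gate or number of animals for these groups, so p-values measure the spread between libraries, which may be technical.

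CD8 T cells recognise peptides on MHC class I molecules and can kill the cells that show them, while CD4 T helper cells read peptides on MHC class II and act through cytokines and contact signals. In the thymus the transcription factors RUNX3 and ThPOK (gene ZBTB7B) fix the CD8 and the CD4 lineage, and each co-receptor, CD8 or CD4, brings the kinase LCK to the T cell receptor. Bone marrow is known as a home of memory T cells as well as of naive cells that pass through it.

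In normal marrow the CD8 libraries were higher for CD8A, for chemokines and granule proteins of cytotoxic cells, for the CD3 chains and other receptor-proximal signalling genes, for genes of naive and central memory cells such as CCR7, TCF7 and LEF1, and for ribosomal proteins. They were lower for CD4, for the costimulatory receptor gene TNFRSF4 and for a broad set of genes best known from plasmacytoid dendritic cells, B cells and other antigen-presenting cells, led by KLK1, COX6A2, SPIB, TYROBP, CD74 and IRF8. Of 3453 genes tested, 182 were higher in CD8 Normal (5.27% of those tested) and 231 were lower (6.69%), at a Benjamini-Hochberg adjusted p under 0.05 with limma on log2(value + 4). The median log2 fold change over all tested genes was 0.02. A value here is the deposited signal, reads divided by 1 factor per library. With libraries scaled to their totals instead, the median moved to -0.18, with 106 genes higher and 385 lower. In a fit of all 40 T cell libraries, which share 1 estimate of the spread, 64 genes were higher and 73 lower. Fold changes were the same there, but 57 of 109 named genes that had passed no longer did, among them KLK1 (adjusted p = 0.161), COX6A2 (0.128), SPIB (0.165), IRF8 (0.0937), CCR7 (0.0763) and LEF1 (0.0826). TYROBP (adjusted p = 0.0111), CD74 (0.0215), TCF7 (0.0429), CD8A (3.2e-06) and CD4 (0.0281) still passed.

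The promoters of 4 of these genes are shown because they belong to the co-receptor that defines the group, to a pair of genes higher in CD8 libraries that share a motif, and to the gene with the smallest p among those lower in CD8 libraries. Each window runs from 250 bases before to 50 bases after the RefSeq start of the mouse gene, 5′ to 3′ on the gene's strand, which is the plus strand for all 4, in the build GRCm38.p6. The windows are chr6:71373177-71373476 for CD8A, chr7:43436888-43437187 for NKG7, chr7:24370013-24370312 for KCNN4 and chr7:44225110-44225409 for KLK1. Capitals mark TGTGGT, the core letters bound by RUNX factors, or its reverse complement in NKG7 and KCNN4, and CAGGTG, an E-box bound by E proteins, in KLK1.
CD8A: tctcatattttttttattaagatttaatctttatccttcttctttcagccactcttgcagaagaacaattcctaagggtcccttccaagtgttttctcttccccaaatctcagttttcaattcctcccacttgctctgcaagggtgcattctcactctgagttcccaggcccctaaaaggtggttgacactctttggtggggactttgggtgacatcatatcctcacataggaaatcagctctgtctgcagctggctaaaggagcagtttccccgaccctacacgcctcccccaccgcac
NKG7: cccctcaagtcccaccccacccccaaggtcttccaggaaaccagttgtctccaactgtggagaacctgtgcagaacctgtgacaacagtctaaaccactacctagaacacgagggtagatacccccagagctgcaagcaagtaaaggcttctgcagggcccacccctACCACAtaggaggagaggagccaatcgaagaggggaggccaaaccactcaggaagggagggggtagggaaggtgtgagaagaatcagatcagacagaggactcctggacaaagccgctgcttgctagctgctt
KCNN4: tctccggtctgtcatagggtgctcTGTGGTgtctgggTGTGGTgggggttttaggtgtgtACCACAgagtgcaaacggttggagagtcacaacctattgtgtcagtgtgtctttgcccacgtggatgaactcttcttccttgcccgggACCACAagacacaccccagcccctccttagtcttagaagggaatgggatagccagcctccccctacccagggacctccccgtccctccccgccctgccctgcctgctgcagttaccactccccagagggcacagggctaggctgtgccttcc
KLK1: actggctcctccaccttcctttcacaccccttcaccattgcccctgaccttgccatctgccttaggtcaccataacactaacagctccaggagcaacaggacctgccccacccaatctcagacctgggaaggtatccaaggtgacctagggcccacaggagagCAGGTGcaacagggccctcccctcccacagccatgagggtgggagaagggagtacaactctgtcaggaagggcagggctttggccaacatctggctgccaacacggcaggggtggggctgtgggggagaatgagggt

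NKG7 held 1 match and KCNN4 held 4 matches to TGTGGT on either strand, and KLK1 held 1 match to CAGGTG. The CD8A window held no match to either, nor to AGGAAGT (ETS factors) or CTTTGAT (TCF and LEF factors), all searched on both strands. TGTGGT occurred in 34 of the 142 genes higher in CD8 libraries that have a RefSeq window (23.9%) and in 31 of 176 genes lower there (17.6%), against 15.7% of the 2809 tested genes with a window and 18.9% of all 27025 genes with one. CAGGTG occurred in 32 of 142 higher genes (22.5%) and in 48 of 176 lower genes (27.3%), against 20.9% of tested genes and 22.6% of all genes. The ETS letters occurred in 29 of 142 higher genes (20.4%) and 24 of 176 lower genes (13.6%), against 12.1% of tested genes. A motif of IRF factors occurred in 9 higher genes (6.34%) and 8 lower genes (4.55%), against 3.28%. The TCF and LEF letters occurred in 3 higher genes (2.11%) and 8 lower genes (4.55%), against 3.20%. A larger share in higher genes than in tested genes was therefore not particular to TGTGGT. All of these are counts of letters in a window and were not tested.

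Depth was modest and differed between libraries. The CD8 Normal libraries held 191344 to 485167 reads and the CD4 Normal libraries 178251 to 452886. Transcripts of lung, among them surfactant genes, summed to 1276 to 2036 in 5 of the 8 libraries (CD8 Normal 2 and 4, CD4 Normal 1, 3 and 4) and to 42.4 to 55.6 in the other 3 (CD8 Normal 1 and 3, CD4 Normal 2). The first principal component (40.9% of the variance) placed the libraries by this split and the second (26.3%) placed all 4 CD8 libraries above all 4 CD4 libraries. Granulocyte markers summed to 4561 and 6983 in CD8 Normal 3 and 1, to 1186 and 1371 in CD8 Normal 4 and 2, and to 1775 to 2640 in the CD4 libraries. The contrast was therefore also taken within each kind of library. Among the 5 libraries with lung transcripts (2 CD8, 3 CD4) 157 genes were higher and 197 lower, and among the 3 without them (2 CD8, 1 CD4) 182 were higher and 170 lower, where the lone CD4 library is assumed to vary as the CD8 libraries do. Of the 109 named genes that passed over all 8 libraries, 17 did not among the 5 with lung transcripts, including CD6, CCL4, CTSS, DUSP10, FCRLA, IFNAR2, SDC1, SLC15A4 and TGFBR1. Among the 3 without them 21 did not, including ZBTB7B, CD6, CD3E, BCL2, CD68, CXCR3, IL21R, IL2RG, LEF1, MZB1, RUNX2, SDC1 and SLC15A4. The other genes that did not pass in either kind were mostly ribosomal.

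The co-receptors followed the labels. CD8A (ENSG00000153563; mouse gene on GRCm38 chromosome 6, 71373427 to 71379173, plus strand), the alpha chain of the CD8 co-receptor, had values of 24.9, 44.0, 42.5 and 52.7 in CD8 Normal 1 to 4, against 2.20, 4.32, 3.62 and 1.71 in CD4 Normal 1 to 4. Every CD8 library was above every CD4 library, and the log2 fold change was 2.67 ± 0.27 (SE, adjusted p = 1.8e-06). CD4 (ENSG00000010610; chromosome 6, 124864692 to 124888221, minus strand) had values of 50.7, 34.3, 26.2 and 27.4 in CD8 libraries, against 94.7, 125, 124 and 125 in CD4 libraries. The groups again did not overlap, although CD4 was above 25 in every CD8 library, and the fold change was -1.68 ± 0.21 (adjusted p = 1.6e-05). Genes were tested where at least 4 of the 8 libraries reached a value of 10. CD8A, DAPL1, TDRP, GZMM and DUSP10 reached it in CD8 libraries alone and TGFBR1 in CD4 libraries alone, so a difference was built into their being tested.

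**Figure D1:**
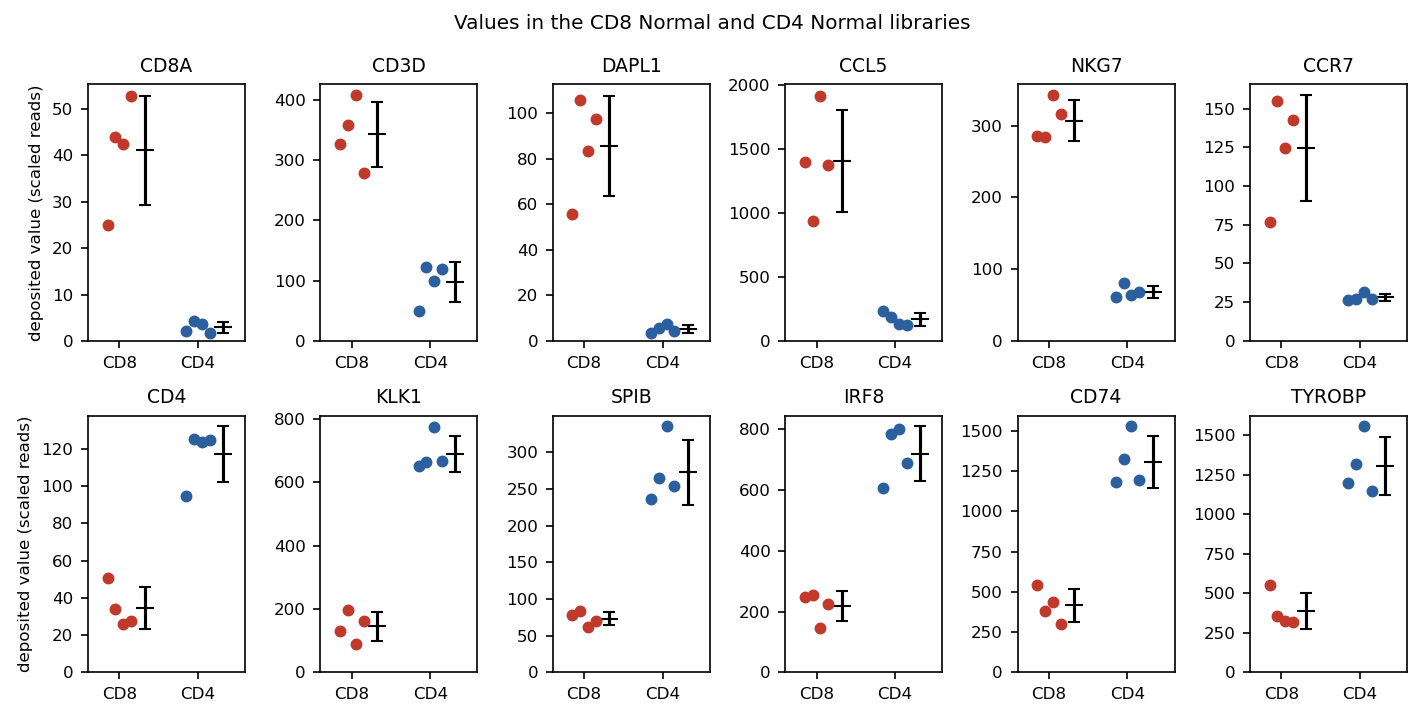
Deposited values (scaled reads, linear axes from 0) of 12 genes in each library, CD8 Normal in red on the left and CD4 Normal in blue on the right of each panel, with the mean and SD (n = 4 each) in black. The upper row holds genes higher in CD8 Normal and the lower row genes lower there, and the groups do not overlap for any of the 12: CD8 values of KLK1 reach 196 where the lowest CD4 value is 653. Most of these genes were chosen for a small p in the same libraries, which favours such separation, and its share over all tested genes was not counted.

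Among the lineage factors, tests were possible for few genes. Of the 13 genes listed for the CD8 lineage 10 were analysed and 3 tested, of which CD8A alone passed. RUNX3, the factor that fixes the CD8 lineage, had values of 24.1, 20.7, 36.0 and 39.0 in CD8 libraries, against 12.1, 31.7, 9.05 and 14.2 in CD4 libraries. CD4 Normal 2 lay inside the CD8 range, and RUNX3 did not pass (0.78 ± 0.29, adjusted p = 0.097), but did without that library (adjusted p = 0.0097). ID2, a repressor of E proteins, gave -0.10 ± 0.20. EOMES, a T-box factor of memory CD8 cells, was untested with values of 9.07 to 24.0 in CD8 libraries and 0 to 3.3 in CD4 libraries. TBX21, which encodes T-bet, overlapped, with 6.65 to 12.3 in CD8 and 2.71 to 15.4 in CD4 libraries. CRTAM, a surface receptor of activated cytotoxic cells, was untested at 6.65 to 15.7 in CD8 and 0 to 3.62 in CD4 libraries. ITGAE, CD160, PRDM1 and TNFSF10 stayed at or under 6.61 in every library.

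The CD4 lineage list had 19 genes, of which 9 were tested. In CD8 libraries 4 were lower and 1, CD6, was higher (against 6.69% and 5.27% of all tested genes). ZBTB7B, the ThPOK gene, had values of 14.1, 7.12, 16.3 and 14.4 in CD8 libraries, against 29.7, 25.9, 19.9 and 33.0 in CD4 libraries. It did not overlap and fell by 0.89 ± 0.25 on the log2 scale (adjusted p = 0.024), a call that ended without CD8 Normal 2 (adjusted p = 0.094), CD4 Normal 1 (0.055) or CD4 Normal 4 (0.084). TNFRSF4, the costimulatory receptor OX40, averaged 15.1 ± 5.69 in CD8 and 55.8 ± 12.3 in CD4 libraries (SD), a change of -1.66 ± 0.24. IZUMO1R, which encodes the folate receptor 4 of T cells, averaged 21.4 ± 8.26 and 64.8 ± 14.5 (-1.48 ± 0.25). CD6, a co-receptor of T cells, was at 79.4 to 131 in CD8 and 49.6 to 65.1 in CD4 libraries (0.65 ± 0.19, adjusted p = 0.028), and its call ended without CD8 Normal 3 (adjusted p = 0.14), CD4 Normal 1 (0.058) or CD4 Normal 4 (0.064). STAT4 (1.34 ± 0.43, adjusted p = 0.056), which passed without CD4 Normal 2 (adjusted p = 0.0068) or CD4 Normal 4 (0.028), GATA3 (0.28), STAT6 (0.18) and CD5 (-0.09) did not pass. CD40LG, ICOS, MAF, BCL6, CXCR5, TOX, TNFSF8, RORA and BACH2 had too few reads to be tested.

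Genes of cytotoxic granules and killing stood higher in CD8 libraries. Of 21 listed genes 17 were analysed and 9 tested, 7 were higher and 0 lower (against 5.27% and 6.69% of all tested genes). The median log2 fold change was 1.56 against 0.02 over all tested genes. CCL5, an inflammatory chemokine stored by memory CD8 cells, had values of 1397, 935, 1916 and 1378 in CD8 Normal 1 to 4, against 231, 184, 131 and 128 in CD4 Normal 1 to 4. The lowest CD8 library was above the highest CD4 library, and the change was 3.03 ± 0.23 (adjusted p = 1.8e-06). NKG7 (ENSG00000105374; chromosome 7, 43437073 to 43438249, plus strand), a granule membrane protein needed for degranulation, had values of 285, 284, 343 and 316, against 61.7, 80.6, 63.3 and 68.8 in CD4 libraries (2.10 ± 0.16, adjusted p = 6.4e-08). Its spread within each group was small beside the gap between them.

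GZMM, a granzyme, was at 15 to 39.2 in CD8 and 0.568 to 1.81 in CD4 libraries (2.36 ± 0.36). CTSW, a cathepsin of cytotoxic lymphocytes, averaged 187 ± 24.2 in CD8 and 61.9 ± 10.4 in CD4 libraries (1.54 ± 0.17). CST7, the granule protease inhibitor cystatin F, averaged 46.5 ± 16.3 and 13 ± 4.32 (1.56 ± 0.26). XCL1, a chemokine for cross-presenting dendritic cells, averaged 33.4 ± 4.07 and 7.54 ± 3.05 (1.73 ± 0.25). CCL4, another chemokine, was called higher (1.33 ± 0.37, adjusted p = 0.031), but CD8 Normal 4 at 18.5 lay within the CD4 range of 5.12 to 20.2. That call ended without CD8 Normal 1 (adjusted p = 0.091), 2 (0.06) or 3 (0.1), or without CD4 Normal 3 (0.11) or 4 (0.059).

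The classical killing genes had too few reads for the main test. GZMA was at 28.3, 9.71, 8.17 and 20.5 in CD8 libraries, against 0, 2.88, 0.905 and 5.68 in CD4 libraries. GZMB was at 4.53 to 11.4 against 0 to 3.62, and PRF1, the pore-forming perforin, at 5.82 to 15.7 against 0 to 2.20. GZMK was at 5.18 to 19.1 against 0 to 1.14. All 4 were higher in every CD8 library than in any CD4 library, and with no filter on low values they passed (adjusted p = 7.5e-05 for GZMA, 0.0048 for GZMB, 0.0026 for PRF1 and 4.2e-05 for GZMK, limma over 11183 genes). In that fit 210 of the 11183 genes were higher and 248 lower. The share of all genes that separate the groups was not counted. IFNG, at 0.648 to 9.81 against 0 to 2.88, overlapped and did not pass there (adjusted p = 0.16). Reads for GZMK numbered 52 over the CD8 and 3 over the CD4 libraries, so the low levels rest on few reads.

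Receptors and adaptors shared with natural killer cells split. HCST, which encodes the adaptor DAP10, averaged 367 ± 51.0 in CD8 and 174 ± 40.7 in CD4 libraries (1.08 ± 0.18, adjusted p = 0.00033). TYROBP, its neighbour on chromosome 7 (30413760 to 30417585, next to HCST at 30417712 to 30419854), encodes the adaptor DAP12 of myeloid and natural killer cells. TYROBP had values of 555, 357, 324 and 317 in CD8 libraries, against 1196, 1316, 1557 and 1149 in CD4 libraries (-1.77 ± 0.17, adjusted p = 1.7e-06). The groups did not overlap for either adaptor, in opposite directions. These were the only ones of the 4 tested members of that list to pass. KLRG1, a receptor of effector cells, was at 4.79 to 16.3 in CD8 and 0.905 to 7.39 in CD4 libraries, and KLRC1 and KLRK1 stayed at or under 5.76.

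Genes of naive and memory cells and of homing were also higher in CD8 libraries. Of 40 listed genes 37 were analysed and 21 tested, 8 were higher and 1 lower (against 5.27% and 6.69% of all tested genes). The median change was 0.50. CCR7, the receptor that guides naive and central memory cells to lymph nodes, had values of 76.4, 155, 124 and 142 in CD8 libraries, against 26.4, 27.4, 31.7 and 27.3 in CD4 libraries. Every CD8 value exceeded every CD4 value (1.95 ± 0.21, adjusted p = 3.5e-06). TCF7, the transcription factor of naive and stem-like memory cells, had values of 30.7, 44.0, 65.4 and 70.5, against 6.61, 11.5, 18.1 and 14.2 in CD4 libraries (1.76 ± 0.28, adjusted p = 0.00017). Its relative LEF1 averaged 24.8 ± 13.2 and 6.23 ± 4.81 (1.48 ± 0.37), with CD8 Normal 1 at 10.8 inside the CD4 range, and its call ended without CD8 Normal 3 (adjusted p = 0.063). Among the 3 libraries without lung transcripts LEF1 gave 0.60 and did not pass (adjusted p = 0.50).

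DAPL1 (ENSG00000163331; chromosome 2, 59484653 to 59505020, plus strand) gave the highest fold change among the tested genes. Its values were 55.7, 106, 83.4 and 97.2 in CD8 Normal 1 to 4, against 3.3, 5.76, 7.24 and 4.55 in CD4 Normal 1 to 4. The groups were separated by a wide gap, and the change was 3.26 ± 0.24 (adjusted p = 6.4e-08). S1PR1, the receptor through which T cells leave tissues, averaged 35.0 ± 6.0 in CD8 and 14.7 ± 5.45 in CD4 libraries (1.09 ± 0.25). ACTN1, an actin crosslinker, averaged 79.0 ± 17.5 and 24.7 ± 1.70 (1.51 ± 0.20). The survival gene BCL2 gave 1.22 ± 0.28, but 0.52 among the 3 libraries without lung transcripts (adjusted p = 0.55). The MAP kinase phosphatase gene DUSP10 gave 1.5 ± 0.36, a call that ended without CD8 Normal 4 (adjusted p = 0.054). CXCR3, the receptor for interferon-induced chemokines, was the member that was lower, with 54.0 to 86.6 in CD8 and 90.7 to 111 in CD4 libraries (-0.59 ± 0.18, adjusted p = 0.036). Its call ended on leaving out CD8 Normal 1, 2 or 4 or CD4 Normal 1, 3 or 4 (adjusted p = 0.062 to 0.11). IL7R (0.71) and KLF2 (0.28) did not pass. CD44 was untested, at 2.49 to 6.54 in CD8 and 7.24 to 11.5 in CD4 libraries.

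The T cell receptor complex and its proximal signalling genes followed the same direction. Of 26 listed genes 23 were analysed and 16 tested, 10 were higher and 2 lower (against 5.27% and 6.69% of all tested genes). The median was 0.99. CD3D, a signalling chain of the receptor, had values of 326, 358, 407 and 279 in CD8 libraries, against 49.6, 122, 98.6 and 119 in CD4 libraries (1.83 ± 0.24, adjusted p = 0.00013). Every CD8 library was above the highest CD4 library. The zeta chain gene CD247 averaged 136 ± 22.5 and 47.6 ± 9.09 (1.45 ± 0.19), CD3G 102 ± 23.1 and 40.2 ± 9.02 (1.25 ± 0.21), and CD3E 57.0 ± 11.1 and 27.6 ± 3.94 (0.94 ± 0.20, adjusted p = 0.0028). The call for CD3E ended among the 3 libraries without lung transcripts (0.93, adjusted p = 0.0695), and those for CD3E (adjusted p = 0.433) and CD247 (0.0694) ended in the fit of 40 libraries.

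Summed over these 4 chains, the level was 551 to 718 in CD8 and 146 to 252 in CD4 libraries. The ratio of the group means was 3.00 (exact permutation test, two-sided, p = 0.0286, the smallest that 4 against 4 can give). In bulk samples fewer cells of a type and less RNA per cell cannot be told apart, so these sums do not say which differs. Kinases and adaptors downstream were higher too. LCK averaged 325 ± 37.2 and 162 ± 16.4 (0.98 ± 0.16), the adaptor LAT gave 1.07 ± 0.18 and the kinase ZAP70 gave 0.91 ± 0.18. SKAP1 (1.00) and PRKCQ (1.29) were higher as well, and the call for PRKCQ ended without CD8 Normal 4 (adjusted p = 0.053). PTPN6, the inhibitory phosphatase SHP-1, fell by 0.83 ± 0.17.

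Ribosomal protein genes were higher nearly throughout. Of 32 listed genes for cytosolic ribosomal proteins 31 were tested, 27 were higher and 0 lower (against 5.27% and 6.69% of all tested genes). The median change was 0.79. With libraries scaled to their totals 17 of the 31 were higher and 0 lower. RPS19, of the small subunit, had values of 3626, 3486, 3873 and 2845 in CD8 libraries, against 1640, 1549, 1533 and 1600 in CD4 libraries (1.12 ± 0.13, adjusted p = 6e-06). The groups were far apart relative to their spread. RPL9, of the large subunit, had values of 1049, 1014, 1032 and 1143, against 323, 491, 472 and 578 in CD4 libraries (1.21 ± 0.16), and RPL36A gave 1.25 ± 0.17. These genes have many near-identical pseudogene copies, and the sources used here do not say how reads shared with them were counted, so single members are uncertain. The calls for RPL19, RPLP0, RPS14, RPS4X and RPS9 ended on leaving out at least 1 of the 8 libraries (adjusted p up to 0.059, 0.057, 0.09, 0.089 and 0.15).

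Of the other genes with the smallest p in this direction, KCNN4, a calcium-activated potassium channel of T cells, had values of 72.3, 86.1, 91.6 and 89.0 in CD8 libraries, against 27.5, 33.1, 23.5 and 34.1 in CD4 libraries (1.41 ± 0.19). PDE2A, a cyclic nucleotide phosphodiesterase, had values of 71.5, 64.8, 65.4 and 69.1, against 17.6, 25.9, 16.3 and 30.1 (1.47 ± 0.21). VPS37B, a subunit of the ESCRT-I sorting complex, gave 1.40 ± 0.18. TDRP was at 29.9 to 43.1 in CD8 and 2.20 to 9.05 in CD4 libraries (2.17 ± 0.27). None of these groups overlapped, a separation that choosing genes by p in the same libraries favours.

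**Figure D2:**
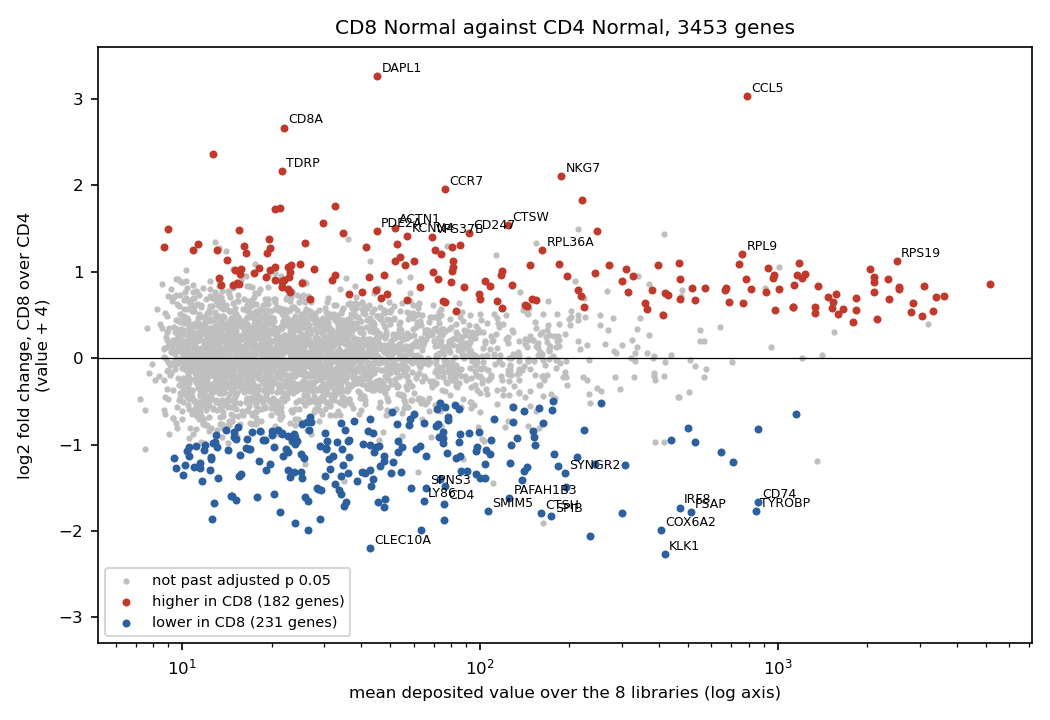
Log2 fold change of CD8 Normal over CD4 Normal (vertical axis, value + 4) against the mean deposited value over the 8 libraries (horizontal log axis) for 3453 genes, with the 182 higher genes in red and the 231 lower genes in blue. Labels mark the 15 named genes per direction: DAPL1 and CCL5 are at the top and KLK1 at the bottom, and genes of ribosomal proteins form the band of higher genes at large means.

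Genes lower in CD8 libraries were led by genes best known outside T cells. Plasmacytoid dendritic cells are interferon-producing cells that develop in marrow under the factors TCF4, SPIB, IRF8 and BCL11A, sense nucleic acids through toll-like receptors carried by UNC93B1, and in mice can carry CD4 on their surface. KLK1 (ENSG00000167748; chromosome 7, 44225360 to 44229618, plus strand), a tissue kallikrein, had values of 130.5, 196, 89.9 and 164 in CD8 Normal 1 to 4, against 653, 664, 775 and 667 in CD4 Normal 1 to 4. The lowest CD4 library was more than 3 times the highest CD8 library, and the change was -2.27 ± 0.20 (adjusted p = 4.1e-07). COX6A2, a cytochrome c oxidase subunit of muscle that mouse plasmacytoid dendritic cells also make, had values of 161, 199, 119 and 168, against 770, 672, 628 and 530 in CD4 libraries (-1.99 ± 0.18, adjusted p = 4.1e-07).

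SPIB, an ETS factor of B cells and plasmacytoid dendritic cells, had values of 78.1, 83.5, 62.1 and 69.8 in CD8 libraries, against 236, 265, 336 and 254 in CD4 libraries (-1.83 ± 0.17, adjusted p = 6.7e-07). IRF8, a factor of dendritic cells, monocytes and B cells, had values of 248, 254, 146 and 224, against 606, 785, 801 and 690 (-1.73 ± 0.18, adjusted p = 2.4e-06). Neither overlapped between the groups. BCL11A fell by 1.33 ± 0.21, RUNX2 by 1.05 ± 0.23 and IRF7, the master factor of type I interferon, by 1.34 ± 0.20. TCF4 itself was untested, at 3.27 to 8.31 in CD8 and 0.905 to 21.6 in CD4 libraries, and the groups overlapped.

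CD74, the invariant chain of MHC class II, had values of 543, 381, 435 and 303 in CD8 libraries, against 1184, 1324, 1530 and 1193 in CD4 libraries (-1.67 ± 0.17, adjusted p = 1.8e-06). PSAP, the precursor of lysosomal saposins, had values of 256, 224, 175 and 234, against 1249, 636, 684 and 636 (-1.78 ± 0.20). CD4 Normal 1 stood apart from the other CD4 libraries for PSAP, and without it the groups still did not overlap. The nuclease gene PLD4 (-1.79 ± 0.25), the phosphatase gene PTPRS (-1.87 ± 0.23), PACSIN1 (-1.66 ± 0.21), UNC93B1 (-1.41 ± 0.18), GRN (-1.20 ± 0.15) and CD7 (-1.24 ± 0.16) fell as well.

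The remaining genes with the smallest p in this direction were the cathepsin gene CTSH (-1.80), the lectin gene CLEC10A (-2.20), LY86, which encodes the MD-1 partner of the receptor CD180 (-1.65), SMIM5 (-1.77), PAFAH1B3 (-1.62), SYNGR2 (-1.33) and SPNS3 (-1.5). None overlapped between the groups, which the choice by p in the same libraries again favours. A list of 30 genes of plasmacytoid dendritic cells was gathered after these values were seen, so its count is a description. Of these 28 were analysed, 21 tested, 17 lower and 0 higher (against 6.69% and 5.27% of all tested genes), with a median of -1.34. Summed over the 28 genes the level was 1460 to 2179 in CD8 and 5260 to 6046 in CD4 libraries. The calls for PLAC8 (adjusted p up to 0.11) and SLC15A4 (0.051) ended on leaving out at least 1 of the 8 libraries. UPB1 and TLR9 were at 0 in all 8 libraries. TLR7 stayed at or under 3.32. The part of such cells in the difference was not tested.

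**Figure D3:**
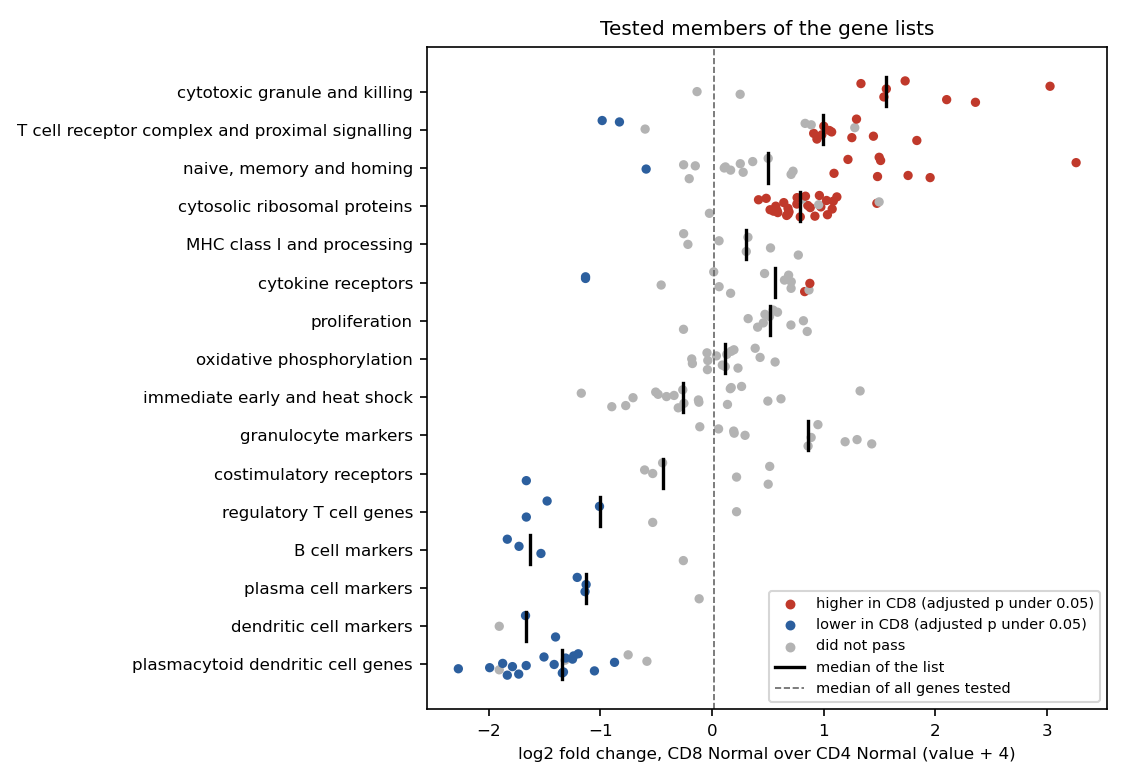
Log2 fold change of CD8 Normal over CD4 Normal (horizontal axis) for the tested members of 16 gene lists (rows), in red where a gene was higher, blue where lower and grey where it did not pass, with a black bar at each list's median and a dashed line at the median of all tested genes. The cytotoxic list has its median at 1.56 and the plasmacytoid dendritic cell list, gathered after the values were seen, at -1.34.

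Markers of other cells were read in each library, and the summed levels of 13 lists were compared by exact permutation (two-sided, adjusted over 13). Dendritic cell markers summed to 446 to 631 in CD8 and 1454 to 1844 in CD4 libraries, with ITGAX, ZBTB46, CLEC9A and CCR9 too low to test and XCR1 at 0. CD74 and BST2 make up most of that sum. B cell markers summed to 124 to 184 and 375 to 562. In that list SPIB, BLNK (-1.53) and FCRLA (-1.73) were lower, while the defining gene PAX5 was at 0 in all 8 libraries, and CD79B did not pass (-0.26). The call for FCRLA ended without CD8 Normal 1, 3 or 4 or CD4 Normal 1 or 2 (adjusted p = 0.053 to 0.088). Plasma cell markers summed to 108 to 200 and 229 to 294, with XBP1 (-1.14), MZB1 (-1.21) and SDC1 (-1.13) lower, and the call for SDC1 ended without CD8 Normal 1 or 3 or CD4 Normal 3 or 4 (adjusted p = 0.051 to 0.11). Those for natural killer cells summed to 363 to 603 and 1164 to 1562, most of it TYROBP, with NCR1, EOMES, ITGA2, GZMA and TXK untested. EOMES, GZMA and TXK (9.1 to 21.3 in CD8, 1.1 to 8.0 in CD4 libraries) went the other way, higher in every CD8 library. NCR1 stayed at or under 1.4 and ITGA2 was at 0, so the lower sum reflects TYROBP and not the list. Each of these 4 lists gave an exact permutation p = 0.0286 (adjusted 0.0619), as did the regulatory T cell and progenitor lists, and none passed the adjustment. That p is the smallest that 4 against 4 can give, reached where the groups do not overlap. A larger difference in a list could not have lowered it, so missing the adjusted threshold does not speak to the size of the differences.

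Regulatory T cell genes summed to 202 to 261 in CD8 and 397 to 589 in CD4 libraries. Of 19 analysed genes 5 were tested and 3 were lower (against 6.69% of all tested genes): TNFRSF4, IZUMO1R and the actin-capping gene CAPG (-1.01 ± 0.22). FOXP3, the factor that defines these cells, was untested at 0.648 to 4.79 in CD8 and 6.61 to 9.95 in CD4 libraries, and IL2RA was at 0 to 2.71 in all. Progenitor markers summed to 60.5 to 84.8 and 122 to 156, and FLT3, the receptor of dendritic cell precursors, was lower (-1.40 ± 0.22). Granulocyte markers had 0 of 11 tested genes past the threshold and an exact permutation p of 0.429 for their sum. Monocyte and macrophage markers had 2 of 7 tested genes lower, CD68 (-1.31) and CTSS (-0.86), against 6.69% of all tested genes. The complement genes C1QA (0.51), C1QB (0.76) and C1QC (0.02) did not pass. The sum of lung transcripts did not differ beyond the spread (exact permutation p = 0.886).

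Of the inhibitory receptors 1 of 13 analysed genes had enough reads. LAG3, which binds MHC class II and is also made by plasmacytoid dendritic cells, had values of 15, 20.1, 14.7 and 16.4 in CD8 libraries, against 58.4, 46.1, 49.8 and 31.8 in CD4 libraries (-1.28 ± 0.22, adjusted p = 0.00045). The groups did not overlap. PDCD1 was at 3.42 to 6.65 in CD8 and 2.84 to 10.1 in CD4 libraries, CTLA4 at 3.42 to 8.42 and 2.27 to 5.76, TIGIT at 1.37 to 3.32 and 0 to 2.88, and HAVCR2 at or under 1.44 in all. The groups overlapped for each of these genes, and the main fit did not test them. Their result without the filter on low values is not given here. Other untested members of the list did separate. CD101 (2.6 to 8.2 in CD8, 0 in CD4 libraries) and TOX (5.2 to 11.4 and 2.3 to 4.5) were higher in every CD8 library. LAIR1 (0 to 2.5 and 2.7 to 12.5) was lower in every CD8 library. These levels rest on few reads.

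Among cytokine receptors 14 were tested, 2 were higher and 2 lower (against 5.27% and 6.69% of all tested genes). IL2RG, the common gamma chain, averaged 139 ± 34.3 in CD8 and 77.0 ± 25.1 in CD4 libraries (0.83 ± 0.23), with CD8 Normal 1 inside the CD4 range, and IL21R gave 0.88 ± 0.23. TGFBR1 fell by 1.13 ± 0.32 and IFNAR2 by 1.13 ± 0.30. Each of these 4 calls ended on leaving out at least 2 of the 8 libraries in turn (adjusted p up to 0.074 for IL2RG, 0.059 for IL21R, 0.095 for TGFBR1 and 0.096 for IFNAR2). With libraries scaled to their totals neither IL2RG nor IL21R passed. No tested member passed among 7 genes of MHC class I and its processing (median 0.31), 11 of proliferation (0.52), 15 of oxidative phosphorylation (0.12) or 20 immediate early and heat shock genes (-0.26). Of the 4 tested genes of the type I interferon response IRF7 was lower. BST2, an interferon-induced surface protein, was at 27.8 to 113 in CD8 and 131 to 577 in CD4 libraries but did not pass (-1.90 ± 0.59, adjusted p = 0.1).

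Because the CD3 chains differed, values of 45 genes were also divided by the summed CD3D, CD3E, CD3G and CD247 of the same library, a setting added after seeing the data. That sum was 3.00 times as high in CD8 libraries, so the division lowers every gene there by about as much, and it shows only which genes differed by more than the CD3 chains. On that scale DAPL1 stood at 10.1 to 16.3% of the sum in CD8 and 1.88 to 3.43% in CD4 libraries, CD8A at 4.52 to 8.85% and 0.704 to 1.72%, and TDRP at 5.24 to 7.24% and 1.5 to 4.29%. These groups did not overlap. GZMM stood at 2.71 to 5.47% and 0.235 to 0.858%, also without overlap. CCL5 stood at 136 to 267% and 52.8 to 158%, with CD8 values higher on average and an overlap. The same held for NKG7 (ratio of the group means 1.46), CCR7 (1.41), TCF7 (1.40) and LEF1 (1.38). ACTN1 and PDE2A were nearly level (1.02 each). In all, 11 of the 45 genes were higher on average in CD8 libraries on this scale.

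The same contrast in early metastatic marrow shares no library with the normal contrast. There 2 of 4238 genes tested were higher in CD8 Premet than in CD4 Premet (0.0472%) and 0 were lower, with 413 at an unadjusted p under 0.05. With edgeR on the recovered reads the counts were likewise 2 and 0. Reads numbered 43228 to 144171 per CD8 Premet and 68264 to 350990 per CD4 Premet library. A single read was worth 1.80 to 6.34 in CD8 Premet and 0.738 to 3.71 in CD4 Premet libraries, against 0.568 to 1.63 in the normal ones. Low early values therefore rest on few reads, and how far depth limits the early calls was not tested. The 2 genes were CCL5 and CD8A. CCL5 had values of 518, 437, 401 and 926 in CD8 Premet 1 to 4, against 111, 81.3, 134 and 51.6 in CD4 Premet 1 to 4 (2.54 ± 0.29, adjusted p = 2.8e-05). CD8A had values of 28.9, 23.6, 30.1 and 31.7, against 7.41, 0, 8.04 and 1.48 (2.13 ± 0.37, adjusted p = 0.012). Neither overlapped, and the call for CD8A ended without CD4 Premet 2 (adjusted p = 0.057) or CD4 Premet 4 (0.063), and at a pseudocount of 1 (0.0526). At that pseudocount 1 gene was higher, CCL5, and 1 lower, DLGAP4 (adjusted p = 0.0396), which did not pass at a pseudocount of 4 (0.107) and was named after its values were seen. CD4 was at 6.34 to 75.6 in CD8 Premet and 63.5 to 163 in CD4 Premet libraries and did not pass (-1.58 ± 0.46, adjusted p = 0.29). The value of 6.34, in CD8 Premet 4, was 1 read.

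Genes called in normal marrow were chosen on the normal libraries, so their normal values are given as a description. The 182 genes higher in CD8 Normal had a median log2 fold change of 0.92 there and -0.05 in early marrow, where 80 were positive, against 44.8% of all tested genes. The 231 lower genes had medians of -1.09 and -0.11, and 153 were negative, against 55.2% of all. The difference between the stages was tested directly, as normal minus early. Over all 4238 genes it passed for 26 upward (0.613%) and 35 downward (0.826%), of which 25 and 34 were called in normal marrow in the matching direction. The stage difference uses the same normal libraries, so that match was favoured in advance.

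In early marrow DAPL1 had values of 5.41, 14.2, 10 and 0 in CD8 Premet, against 3.71, 0, 5.36 and 2.21 in CD4 Premet libraries, which overlapped. These values rest on few reads: 1 read was worth 6.34 in CD8 Premet 4, where DAPL1 was at 0. The change there was 0.61 ± 0.42 and the stage difference 2.66 ± 0.59 (adjusted p = 0.019). NKG7 averaged 141 ± 19.3 and 87.5 ± 22 in early marrow, with a stage difference of 1.41 ± 0.30. ZAP70 averaged 25.2 ± 4.02 and 53.1 ± 23.1 there (1.80 ± 0.38), and KCNN4 averaged 24.9 ± 7.27 and 39.3 ± 19.5 (1.90 ± 0.43). Among the listed ribosomal protein genes 9 of 31 differed upward between the stages (against 0.613% of all genes tested), RPS19 by 1.24 ± 0.21.

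KLK1 had values of 363, 449, 187 and 437 in CD8 Premet, against 371, 524, 426 and 544 in CD4 Premet libraries. The groups overlapped, the change was -0.43 ± 0.25, and the stage difference was -1.84 ± 0.35 (adjusted p = 0.0078). SPIB averaged 227 ± 78.5 and 194 ± 51.5 there, with a stage difference of -2.01 ± 0.36 (adjusted p = 0.0045), and CD74 averaged 857 ± 235 and 718 ± 123, with -1.89 ± 0.31 (adjusted p = 0.0039). Summed over the 28 plasmacytoid dendritic cell genes the level was 3265 to 6656 in CD8 Premet and 5319 to 6124 in CD4 Premet libraries, so the 4 CD8 Normal libraries, at 1460 to 2179, lay below all 12 others. The 4 CD3 chains summed to 178 to 251 in CD8 Premet and 127 to 206 in CD4 Premet libraries, and the CD8 Normal libraries, at 551 to 718, lay above all of them. The granulocyte marker sum reached 34906 in CD8 Premet 3, against 5011 to 9135 in the other CD8 Premet libraries. Without CD8 Premet 3 the stage difference passed for 84 genes. It passed for 28 to 40 genes on leaving out CD8 Normal 2, 3 or 4, CD4 Normal 2, 3 or 4, CD8 Premet 2 or CD4 Premet 1.

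**Figure D4:**
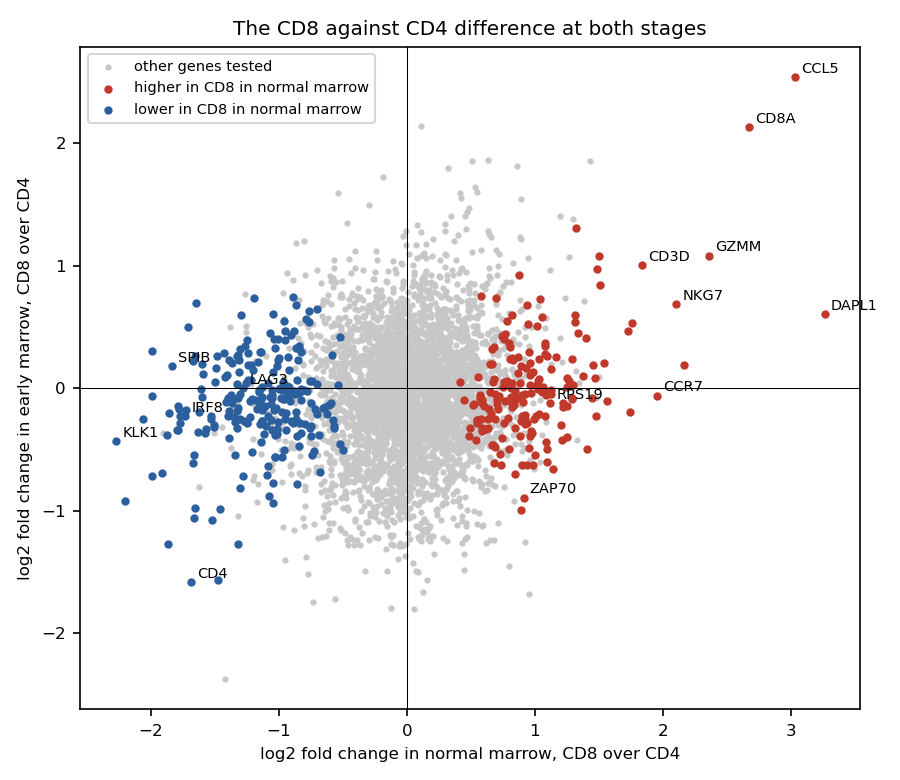
Log2 fold change of CD8 over CD4 in normal marrow (horizontal axis) and in early metastatic marrow (vertical axis) for 4238 genes, with the genes higher in CD8 Normal in red, those lower in blue and the others in grey. CCL5 (3.03 and 2.54) and CD8A lie far out on both axes, while DAPL1 (3.26 and 0.61) and KLK1 (-2.27 and -0.43) lie near 0 on the vertical axis.

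**Figure D5:**
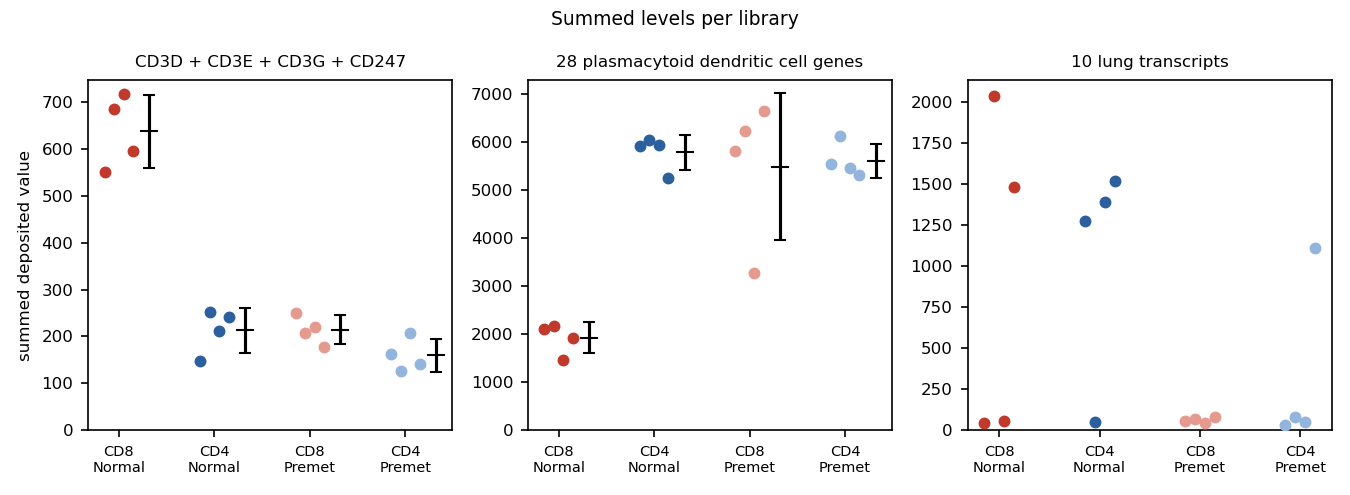
Summed deposited values per library of the 4 CD3 chains, of 28 plasmacytoid dendritic cell genes and of 10 lung transcripts (linear axes from 0) in CD8 Normal, CD4 Normal, CD8 Premet and CD4 Premet, with the mean and SD (n = 4 each) in black in the first 2 panels. The CD8 Normal libraries stand above the other 3 groups for CD3 and below them for the dendritic cell genes, and the lung transcripts split the libraries within CD8 Normal, CD4 Normal and CD4 Premet.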

How the data were processed

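RNA of sorted mouse marrow T cells was measured by MARS-seq. Per the submitters' processing notes, fastp 0.20.0, STAR 2.6.0c, DESeq2 1.30.1 and GRCm38 (mm10) were used; the sources used here do not give the counting or the handling of molecular tags. The values the authors deposited are a signal, reads divided by 1 factor per library: in each library 100% of values are whole multiples of what 1 read is worth, within 0.01. Of 15734 features, 5 without a symbol were left out, at most 0.00817% of a normal library. Genes carry human-style symbols and IDs, and coordinates and promoters were taken from the mouse gene with the matching name. Gene coordinates came from GENCODE M21 (GRCm38) and promoter windows from RefSeq (GRCm38.p6), so the start of a gene can differ between them.

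Libraries were grouped by title. The CD8 Normal and CD4 Normal libraries were compared on log2(value + 4) in limma 3.58.1 under R 4.3.3, using its trend and robust options, for genes at 10 or more in at least 4 of 8 libraries. Fold changes on this scale understate the change of low genes. The threshold is 0.05 on p-values adjusted by Benjamini-Hochberg over all genes tested. Early marrow and the difference between stages were fitted over 16 libraries. Summed marker levels were compared by exact permutation. Settings also tried were other pseudocounts, filters and scalings, limma-voom, edgeR 4.0.16 and DESeq2 1.42.0 on the recovered reads, all 40 T cell libraries, a replicate block, each library left out, and, chosen after seeing the data, lung transcripts as a covariate or a split and division by the CD3 chains. The limma procedure was tested on counts simulated from the 8 normal libraries. It called 46% of genes raised 2-fold and 56% of those lowered to 0.5 of their level. At 4-fold and 0.25 it called 98% and 94%, and of unchanged genes 0.153%. A gene that did not pass can therefore still differ.

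Named genes are the 15 with the smallest p in each direction (log2 fold change of at least 1, 20 CPM or more on average in the higher group, no clone names), all lineage factors, of each other list the members that pass and up to 6 others, and fixed checkpoint, cytotoxic and CD3 genes. Genes of the plasmacytoid dendritic cell list were named after their values were seen. The compared groups, members and lists were chosen with earlier results of these data known. Some genes of these lists are counted in them but not reported here by name.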

Additional observations from a re-analysis of the deposited data

Results flagged for a closer look

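Single libraries stood apart from the other 3 of their group in 14 of the 230 gene-by-group sets looked at, where chance marks about 1 in 20. Among CD8 libraries, TYROBP stood at 555 in CD8 Normal 1, RPS7 at 823 in CD8 Normal 1, CD6 at 131 in CD8 Normal 3, CD3E at 73.6 in CD8 Normal 3 and RPL37A at 1423 in CD8 Normal 4. Among CD4 libraries, 6 of the 9 values were in CD4 Normal 1: CD4 at 94.7, PSAP at 1249, RPL32 at 1107, RPL37A at 464, RUNX2 at 20.9 and SLC15A4 at 39.6. The others were RPL27 at 324 in CD4 Normal 2, KLK1 at 775 in CD4 Normal 3 and ACTN1 at 22.2 in CD4 Normal 4.

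The CD8 over CD4 difference itself differed between normal and early marrow for 33 of the named genes (limma, interaction over 16 libraries, adjusted p under 0.05). Over all 4238 genes tested it did so for 61 (1.44%). Many named genes were chosen for their p in the same normal libraries, so a pass in that direction was favoured in advance. The difference is given here as the log2 fold change in normal minus that in early marrow. It was more positive in normal marrow for DAPL1 (2.66), NKG7 (1.41), CTSW (1.33), KCNN4 (1.90) and ZAP70 (1.80). The same held for the ribosomal protein genes RPS19 (1.24), RPL9 (1.5), RPL13 (0.94), RPL13A (0.81), RPL23 (1.3), RPL27 (1.29), RPL32 (1.27), RPL37A (1.34), RPS18 (0.87) and RPS3 (1.04). It was more negative in normal marrow for KLK1 (-1.84), COX6A2 (-1.92), SPIB (-2.01), TYROBP (-1.54), CD74 (-1.89), IRF8 (-1.5), SMIM5 (-1.49), PAFAH1B3 (-1.43) and SYNGR2 (-1.14). The same held for PSAP (-1.44), SPNS3 (-1.55), CD7 (-1.31), FLT3 (-1.51), GRN (-1.34), PLD4 (-1.64), PTPN6 (-1.12), PTPRS (-1.49) and UNC93B1 (-1.3).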

How the results depend on the processing

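The count of genes that passed was 413 and stayed between 362 and 490 under other pseudocounts, filters, TMM scaling, edgeR, DESeq2, limma-voom and lung transcripts as a covariate, and was 315 to 402 (136 to 194 higher, 179 to 214 lower) with 1 library left out. Scaling to library totals gave 106 higher and 385 lower, and all 40 T cell libraries in 1 fit gave 137 (64 and 73); the cause was not tested. In early marrow 1 to 8 genes passed with 1 library left out, and the stage difference passed for 28 to 84. Same-numbered libraries deviated with r of -0.119, -0.554, -0.21 and 0.344. Over all CD8 and CD4 pairs r was negative where the libraries differed in lung transcripts and positive where they did not. The r values therefore cannot say whether the numbers pair libraries. With a replicate block 376 genes passed (172 higher, 204 lower) and the stage difference passed for 36.

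Of 109 named genes that passed, 89 did so with each library left out. At a minimum of 20 only 101 of them were tested, and 44 of these passed in all 23 settings other than division by the CD3 chains; 57 did not in the fit of 40 libraries, and 0 of the 109 changed direction. Genes that did not pass changed sign in places: RUNX3 to -0.0902 without the libraries with lung transcripts, ID2 to 0.0338 in lung-transcript libraries alone (-0.25 to 0.0257 with 1 library left out), STAT6 to -0.0358 with library totals, and CD5 to 0.20 in lung-transcript libraries (-0.22 to 0.00894 with 1 library left out). The megakaryocyte marker sum, 0.0691 higher in CD8 libraries, was -20.5 in CPM. Division by the CD3 chains, whose sum was 3.00 times as high in CD8 libraries, lowers every gene by about as much, so a sign change there only marks a gene that differed by less than these chains. The log2 ratio was then -0.00578 for CTSW, -0.52 for RPS19, -0.14 for VPS37B, -0.10 for KCNN4, -0.38 for RPL9, -0.32 for RPL36A, -1.19 for GATA3, -0.92 for CD6, -0.17 for CCL4, -0.54 for LAT, -0.64 for LCK, -0.42 for S1PR1 and -0.69 for ZAP70. Most checkpoint genes, granzymes and helper factors had under 10 in most libraries, so the main filter left them out and their levels rest on few reads.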
